A study of Rattus norvegicus with 6 samples.

Results

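The adenylyl cyclases are the enzymes that make cyclic AMP (cAMP) from ATP. The family was taken as the genes whose rat symbol is Adcy1 to Adcy10, matched by NCBI gene identifier, and all 10 were found among the 38445 genes counted. The counts came from the amygdala of adult male Sprague Dawley rats, labelled as wild type, that were injected intraperitoneally with saline (control) or with ethanol at 1 g/kg and killed 1 h later. RNA of 2 rats was pooled for each library, so 6 rats per group gave 3 control and 3 ethanol libraries, and the variation between single rats is not seen. The dissected tissue held the central, medial and basolateral nuclei together, and in such bulk RNA fewer cells of a type and less RNA per cell cannot be told apart. The question here was how strongly each adenylyl cyclase was expressed in this tissue and whether its RNA differed 1 h after ethanol.

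Adenylyl cyclases sit downstream of G protein-coupled receptors. The stimulatory subunits Gs and Golf, encoded by Gnas and Gnal, activate the membrane-bound enzymes, whereas Gi subunits inhibit several of them, and the cAMP that is formed acts through protein kinase A, Epac proteins and cyclic nucleotide-gated channels until phosphodiesterases degrade it. The membrane-bound isoforms are grouped by how they are regulated: Adcy1, Adcy3 and Adcy8 are stimulated by calcium and calmodulin, Adcy2, Adcy4 and Adcy7 by G protein beta-gamma dimers, Adcy5 and Adcy6 are inhibited by calcium and Gi, and Adcy9 responds poorly to the activator forskolin. Adcy10 is the soluble enzyme, which is activated by bicarbonate and calcium. cAMP signaling in the amygdala, through protein kinase A and the transcription factor CREB, has long been studied in relation to anxiety and ethanol.

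Each library held 62576504 to 70755739 reads assigned to genes, and 3 counts corresponded to 0.0424 to 0.0479 CPM (the count scaled to a common library total), a floor that covers counting error only. Of the amygdala neuron genes looked at, Prkcd, Sst, Crh, Nts, Rspo2, Gad1 and Gad2 all had counts, and their summed level was 696 to 880 CPM in the control and 703 to 807 CPM in the ethanol libraries. The libraries were not alike in other cell types. The summed level of 8 oligodendrocyte markers ran from 3727 to 8720 CPM in the control and from 4551 to 10099 CPM in the ethanol libraries, and was highest in ethanol 3 and control 1. The summed level of 8 cortical-type glutamatergic neuron markers (Slc17a7, Nrn1 and Neurod6 at the highest levels) was lowest in these same libraries, at 613 CPM in ethanol 3 and 625 CPM in control 1, against 797 to 1230 CPM in the other 4. Choroid plexus epithelium markers, led by Ttr, summed to 524 to 1126 CPM in the control libraries and to 13.1, 14.0 and 483 CPM in ethanol 1, 2 and 3, with 9 of the 10 markers tested and Otx2 at 1 count in all. Because of the oligodendrocyte and glutamatergic levels, the fold changes of all members without control 1 and ethanol 3 are given too. That choice does not even out the choroid plexus markers, which differ most between the libraries that remain.

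Per length of exon, Adcy2 and Adcy1 were the most abundant family members. In RPKM, that is CPM divided by the exon length in kilobases, Adcy2 had a mean of 36.7 ± 3.7 (SD, n = 6 libraries) and Adcy1 of 34.7 ± 5.36 (SD, n = 6), and the order of these 2 genes was not stable, since Adcy2 was the higher in 2 of 6 libraries. Adcy5 followed with 20.5 RPKM and Adcy3 with 17.5 RPKM, and the ranges of Adcy1, Adcy5 and Adcy3 did not overlap. Adcy9, Adcy6 and Adcy8 formed a middle group at 9.64, 9.61 and 8.88 RPKM, whose ranges overlapped, so their order cannot be given. A wide step separated these 7 from the rest: Adcy8 was 8.38-fold above Adcy4, at 1.06 RPKM. Adcy7 had 0.739 RPKM, and its range overlapped with that of Adcy4. Adcy10 was the lowest with 0.206 RPKM and did not overlap with any other member.

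**Figure D1:**
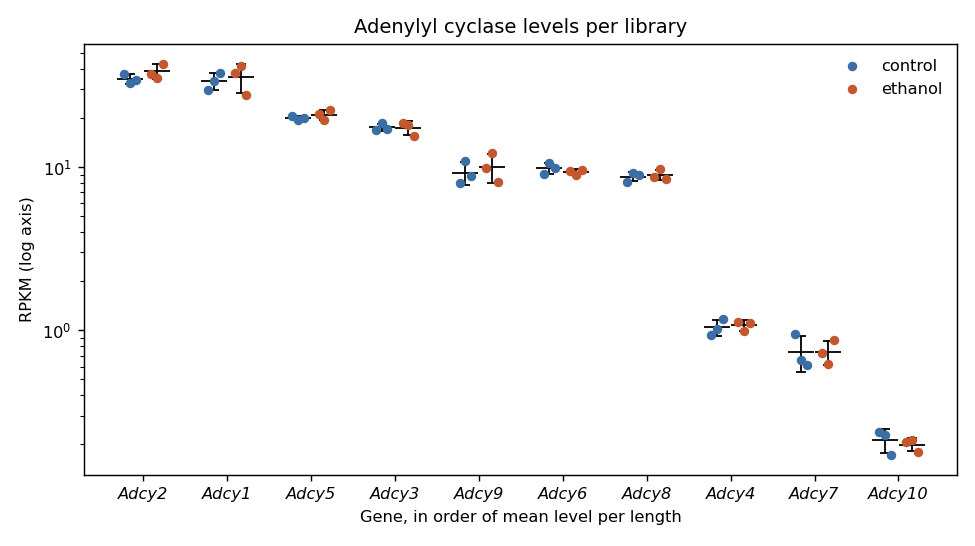
Level of each adenylyl cyclase in RPKM on a log axis, one point per library (blue, control; orange, ethanol), with the mean and SD of the 3 libraries of a group in black. Adcy2 and Adcy1 lie at the top around 30 to 40 RPKM, Adcy10 lies near 0.2 RPKM, and for every gene the points of the 2 groups overlap.

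Exon length changes this order in part, because the annotated exons of Adcy1 and Adcy7 span 13714 and 13894 bases against 3460 to 8775 bases for the others. Without division by length, Adcy1 was first with 476 CPM, followed by Adcy5 with 180.2 CPM and Adcy2 with 142 CPM, and 7 of the 9 neighbouring pairs kept their order. Of the summed RPKM of the family, the calcium-stimulated members Adcy1, Adcy3 and Adcy8 made up 43.7% on average, the members stimulated by beta-gamma dimers 27.6%, nearly all of it Adcy2, and Adcy5 with Adcy6 21.6%. Adcy9 made up 6.89% and Adcy10 0.148%.

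The promoter windows at hand differed in base composition. RefSeq windows of 300 bases, 250 before to 50 after the annotated start in the GRCr8 build, matched 7 members (all but Adcy3, Adcy6 and Adcy8, which are among the 7 abundant ones), and they depend on where the annotation places the start. The share of G and C was 84.7% in Adcy1, 74.0% in Adcy9, 72.7% in Adcy2 and 70.7% in Adcy5, and 59.0% in Adcy4, 58.3% in Adcy7 and 47.0% in Adcy10, the 3 members of lowest level, against a median of 51.7% over 33469 windows. The GC box GGGCGG, searched on both strands with overlapping matches counted, occurred in Adcy1 (7 matches), Adcy5 (4) and Adcy2 (3), the 3 most abundant members, and not in the windows of Adcy4, Adcy7, Adcy10 and the mid-level Adcy9. With 7 windows this is a description and was not tested. In the Adcy1 window, an ATG before the annotated start (atggcggggg) begins a reading frame without a stop codon up to the window's end. The GC boxes 77 and 64 bases before the start come after this ATG. An ATG also stands at the annotated start in the Adcy7 window. Its reading frame has no stop codon up to the window's end. Whether these parts are coding sequence was not tested. The share of G and C and the match counts of Adcy1 and Adcy7 are therefore not read as those of promoters, nor set against their level. Over all windows, 33.1% held the GC box. The 2 abundant and 2 scarce promoters below are printed 5′ to 3′ to show this contrast, with GC boxes (GGGCGG or its complement CCGCCC) in capitals.
Adcy2, GRCr8 chr1:36203804-36204103, plus strand: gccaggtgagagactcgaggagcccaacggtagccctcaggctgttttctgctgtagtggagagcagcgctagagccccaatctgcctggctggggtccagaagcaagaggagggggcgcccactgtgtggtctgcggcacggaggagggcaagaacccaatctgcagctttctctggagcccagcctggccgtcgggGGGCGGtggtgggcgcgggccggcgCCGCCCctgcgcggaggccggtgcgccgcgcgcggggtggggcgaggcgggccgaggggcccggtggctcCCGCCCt
Adcy5, GRCr8 chr11:79123294-79123593, minus strand: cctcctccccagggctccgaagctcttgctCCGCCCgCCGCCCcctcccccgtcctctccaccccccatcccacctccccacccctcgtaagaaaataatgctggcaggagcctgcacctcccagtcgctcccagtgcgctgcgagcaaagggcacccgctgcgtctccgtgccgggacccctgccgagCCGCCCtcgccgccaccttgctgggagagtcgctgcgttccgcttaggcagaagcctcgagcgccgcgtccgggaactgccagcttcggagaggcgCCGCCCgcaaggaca
Adcy4, GRCr8 chr15:33251977-33252276, minus strand: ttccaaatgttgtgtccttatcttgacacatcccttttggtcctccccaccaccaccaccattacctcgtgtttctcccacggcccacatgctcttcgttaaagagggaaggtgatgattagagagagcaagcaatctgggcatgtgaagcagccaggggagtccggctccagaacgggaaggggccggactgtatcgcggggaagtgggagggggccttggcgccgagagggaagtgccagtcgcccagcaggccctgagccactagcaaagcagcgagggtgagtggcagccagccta
Adcy10, GRCr8 chr13:80284066-80284365, plus strand: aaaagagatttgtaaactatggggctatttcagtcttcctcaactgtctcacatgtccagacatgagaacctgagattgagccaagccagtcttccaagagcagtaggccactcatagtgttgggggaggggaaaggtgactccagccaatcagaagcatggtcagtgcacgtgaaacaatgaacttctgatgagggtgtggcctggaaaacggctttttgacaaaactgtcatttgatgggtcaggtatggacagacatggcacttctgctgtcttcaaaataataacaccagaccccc

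The cAMP response element TGACGTCA, the site that CREB binds, was in none of the 7 windows and in 1.83% of all windows. Its shorter core TGACG, searched on both strands and contained in the full element, was found once in Adcy7, starting 35 bases after the start, once in Adcy9, starting 60 bases before it, and in 21.2% of all windows. The match in Adcy7 comes after the ATG at its annotated start, so it is not read as a promoter site. These matches describe the letters in the windows and not binding.

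No adenylyl cyclase passed the test for a difference after ethanol. By edgeR's quasi-likelihood test, 0 of the 10 members had an adjusted p below 0.2, the threshold used by the study. The same test called 0 of all 18141 genes tested (0%). The study itself reported genes below this threshold in its own analysis of the RNA-seq data. Here, edgeR's likelihood ratio test called 77 genes, DESeq2 74 and limma-voom 0, none of them a member. At an unadjusted p below 0.05 there were 0 members, beside 753 genes, or 4.15% of all genes tested (1.57% higher and 2.58% lower in ethanol; with library size alone in place of TMM scaling, 194 genes were higher and 625 lower). All 10 members passed the filter on low counts. Of the 10, 6 had a fold change above and 4 below 0, and their log2 fold changes had a median of 0.04 beside 0.01 over all genes. The median absolute log2 fold change was 0.07 for the members and 0.07 for all genes. Summed over the family, the level was 136 ± 3.48 RPKM in the control and 143 ± 5.57 RPKM in the ethanol group (SD, n = 3 each), with ethanol 3 inside the control range. Counting error was small for the 7 abundant members, from 0.617% to 1.9% in their lowest libraries, against an SD between control libraries of 2.68% to 16.1% of the mean. The control and ethanol libraries overlapped for each member, whereas all 3 ethanol libraries lay above the controls for 3.65% and below them for 5.19% of all genes tested.

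**Figure D2:**
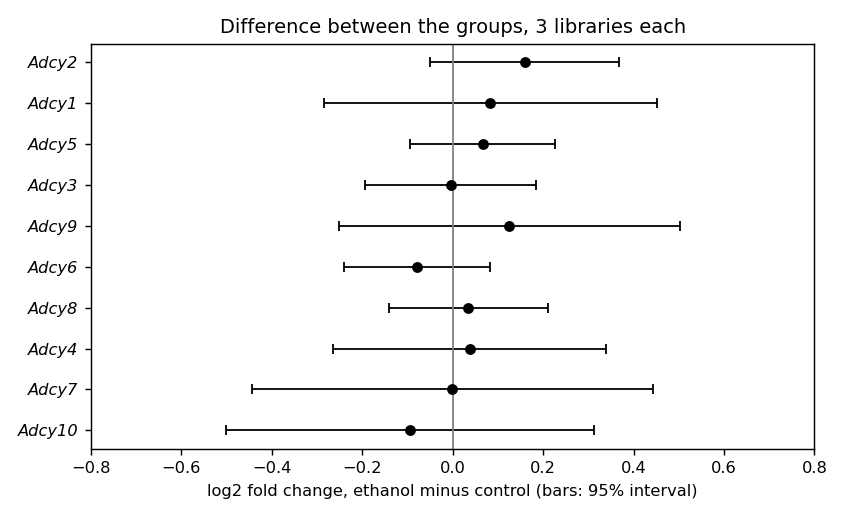
Log2 fold change of each adenylyl cyclase, ethanol minus control, from edgeR's quasi-likelihood fit, with bars for the 95% interval and genes ordered by level. All 10 intervals include 0, and they are narrow for Adcy5, Adcy6, Adcy8 and Adcy3 and wide for Adcy7, Adcy9, Adcy1 and Adcy10.

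Among the calcium-stimulated enzymes, Adcy1 is known for its role in synaptic plasticity and is abundant in cortex-like areas. Adcy1 (NCBI gene 305509, Rnor_6.0 chromosome 14 from 87311970 to 87429880) had levels of 408, 464 and 515 CPM in control 1, 2 and 3 and 522, 571 and 378 CPM in ethanol 1, 2 and 3. The 2 highest libraries and the lowest one were all from the ethanol group. Its log2 fold change was 0.08, with a 95% interval of -0.28 to 0.45 (adjusted p = 1.0, edgeR's quasi-likelihood test), so that the interval reaches from -17.9% to 36.7%. With 1 library left out, the log2 fold change ran from -0.04 without ethanol 2 to 0.24 without ethanol 3, where the adjusted p was 0.566 by the same edgeR test.

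Adcy3 is the enzyme of olfactory neurons and of the primary cilia of central neurons. Adcy3 (NCBI gene 64508, chromosome 6 from 28570941 to 28648848) had 81.9, 90.6 and 83.4 CPM in control 1, 2 and 3 and 91.1, 88.2 and 75.8 CPM in ethanol 1, 2 and 3. The group means of 85.3 ± 4.69 and 85.0 ± 8.11 CPM (SD, n = 3 each) nearly coincided, and the interval of the difference ran from -12.6% to 13.7%. Its exons share 45 bases with Cenpo on the opposite strand, which the stranded counting keeps apart. Adcy8, the other calcium-stimulated form (NCBI gene 29241, chromosome 7 from 105353883 to 105593372), had 42.3, 47.7 and 46.4 CPM in the control and 45.2, 50.4 and 44.1 CPM in the ethanol libraries. The values of the groups were interleaved, with a log2 fold change of 0.03 and an interval of -9.34% to 15.7%.

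Of the members that respond to beta-gamma dimers, Adcy2 was the one with the smallest p of the family. Adcy2 (NCBI gene 81636, chromosome 1 from 37043071 to 37698390) had 145, 126 and 132 CPM in control 1, 2 and 3 and 145, 137 and 167 CPM in ethanol 1, 2 and 3. Control 1 lay above ethanol 2 and just below ethanol 1, and ethanol 3 was the highest of all. The mean was 134 ± 9.28 CPM in the control and 150 ± 15.6 CPM in the ethanol group (SD, n = 3 each), a log2 fold change of 0.16 with a standard error of 0.09 and an interval of -3.34% to 29.0%. In edgeR's quasi-likelihood fit the unadjusted p was 0.115, at rank 1706 among all genes, and the adjusted p was 1.0. The exact permutation test over the 6 libraries gave p = 0.2, where 0.1 is the smallest possible. With 1 library left out, the log2 fold change of Adcy2 ran from 0.07 without ethanol 3 to 0.22 without ethanol 2 (adjusted p = 1.0 in the latter edgeR fit), and it was 0.21 without control 1.

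Adcy7 and Adcy4 were expressed at a low level. Adcy7 is known from blood and immune cells and from studies in which ethanol raised the activity of the enzyme. It (NCBI gene 84420, chromosome 19 from 19702307 to 19762973) had 13.2, 9.11 and 8.5 CPM in control 1, 2 and 3 and 10.1, 8.61 and 12.05 CPM in ethanol 1, 2 and 3, from 539 to 864 reads per library. The highest library of each group, control 1 and ethanol 3, stood apart from its neighbours, while the group means of 10.3 ± 2.56 and 10.3 ± 1.72 CPM (SD, n = 3 each) nearly coincided. The log2 fold change was 0.00 with an interval of -0.44 to 0.44, which reaches from -26.5% to 35.9%. The summed level of 10 microglia markers was 343 to 382 CPM in the control and 350 to 408 CPM in the ethanol libraries, with none of the markers at 0. Its order over the libraries differed from that of Adcy7, with control 2 and ethanol 2 lowest.

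Adcy4 is found in endothelial cells and elsewhere outside neurons. Adcy4 (NCBI gene 54223, chromosome 15 from 34453917 to 34469779) had 3.26, 3.52 and 4.07 CPM in the control and 3.91, 3.4 and 3.82 CPM in the ethanol libraries, from 213 to 266 reads. The ethanol values all lay inside the control range. The log2 fold change was 0.04 with an interval of -16.7% to 26.6%. The 10 endothelial markers summed to 220 to 243 CPM in the control and 217 to 241 CPM in the ethanol libraries, with none at 0.

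Adcy5 is the main cyclase of striatal neurons, where it couples to Golf, dopamine and adenosine receptors. Adcy5 (NCBI gene 64532, chromosome 11 from 68695839 to 68842452) was the steadiest member between control libraries, with 181, 171 and 176 CPM in control 1, 2 and 3, and it had 187, 171 and 195 CPM in ethanol 1, 2 and 3. Ethanol 2 lay below all controls and the other two ethanol libraries above them. The log2 fold change was 0.07 with a standard error of 0.07 (adjusted p = 1.0, edgeR's quasi-likelihood test), and the interval of -6.29% to 17.0% was among the narrowest of the family. With 1 library left out, it ran from 0.02 without ethanol 3, the highest library, to 0.12 without ethanol 2, the lowest. Of its exonic bases, 69 are shared with LOC102551038 on the opposite strand.

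Adcy6, the close relative of Adcy5 (NCBI gene 25289, chromosome 7 from 140270678 to 140291722), had 66.3, 77.2 and 72.3 CPM in control 1, 2 and 3 and 68.8, 65.4 and 70.2 CPM in ethanol 1, 2 and 3. Control 1 was the second lowest library, and the other two controls were above all ethanol libraries. The log2 fold change was -0.08 with an interval of -15.3% to 5.89%, and with 1 library left out it ran from -0.14 without control 1 to -0.02 without control 2. Adcy6 and Adcy5 thus had fold changes of opposite sign, neither larger than the spread between libraries.

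Adcy9 (NCBI gene 302950, chromosome 10 from 11392698 to 11515406) had 58.8, 79.9 and 64.7 CPM in control 1, 2 and 3 and 72.8, 89.7 and 59.3 CPM in ethanol 1, 2 and 3. It varied by 1.53-fold between the lowest and the highest library, with ethanol 3 and control 1 at the bottom. The log2 fold change of 0.13 had an interval of -16.0% to 41.6%. Its exons share 189 bases with LOC102551062 on the opposite strand.

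Adcy10, the soluble enzyme (NCBI gene 59320, chromosome 13 from 83701952 to 83787010), was barely expressed, with 80 to 120 reads per library. Its levels were 1.74, 1.69 and 1.26 CPM in control 1, 2 and 3 and 1.51, 1.57 and 1.32 CPM in ethanol 1, 2 and 3, so that every ethanol library lay within the control range. The log2 fold change was -0.09 with an interval of -29.4% to 24.2%, the lowest bound of the family, and counting error alone amounts to 11.2% of the value at 80 reads. Soluble adenylyl cyclase is known in choroid plexus and in motile cilia. By edgeR, 5 of 9 choroid plexus and 6 of 9 motile cilia markers were lower in the ethanol group at an unadjusted p below 0.05, beside 2.58% of all genes tested. None of these markers had an adjusted p below 0.2. The 9 motile cilia and ependyma markers tested summed to 117 to 161 CPM in the control and 94.6 to 116 CPM in the ethanol libraries. In ethanol 1 and 2, where the choroid plexus markers summed to 13.1 and 14.0 CPM, Adcy10 was at 1.51 and 1.57 CPM, within the range of the controls. The part of these cell types in the level of Adcy10, a gene of few reads, was not tested.

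For each of the 10 members, at least 1 library lay farther from its group mean than the group means lay from each other on the log2 scale. Adcy1 was lowest in ethanol 3 and next lowest in control 1, and Adcy3, Adcy8 and Adcy9 had these same libraries as their 2 lowest. Adcy7 was highest in control 1 and ethanol 3, and Adcy2 and Adcy5 were highest in ethanol 3. Adcy4, Adcy6 and Adcy10 had other orders. The ratio of Adcy1 to Adcy2, both in RPKM, was therefore 0.797 in control 1 and 0.637 in ethanol 3 and between 1.01 and 1.18 in the other 4 libraries. The deviation of Adcy1 from its group mean on the log2 scale was -0.17 in control 1 and -0.35 in ethanol 3, that of Adcy9 was -0.19 and -0.30, that of Adcy2 was 0.11 and 0.16, and that of Adcy7 was 0.39 and 0.24.

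**Figure D3:**
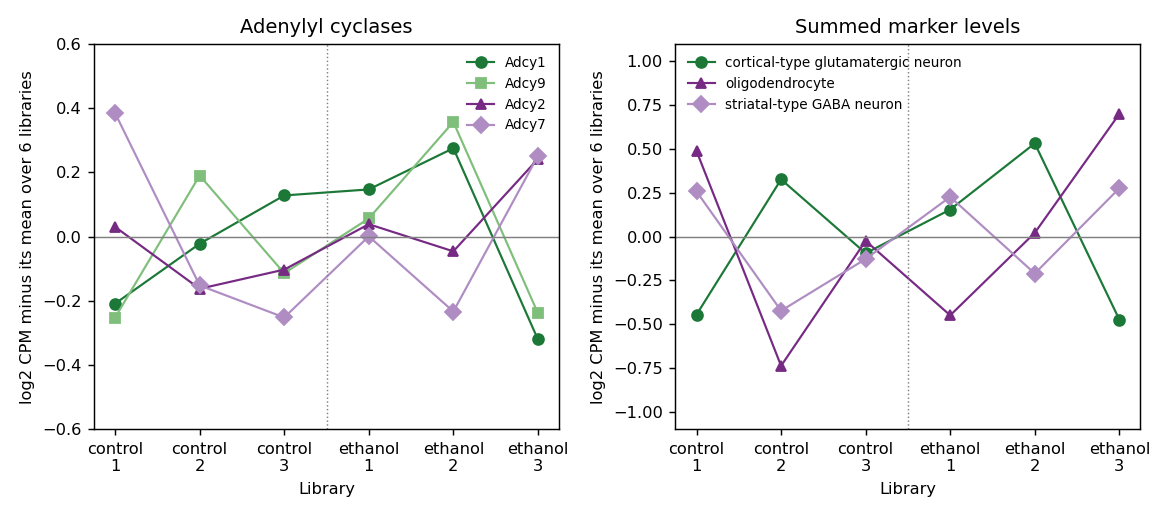
Left, log2 CPM of 4 adenylyl cyclases, chosen after their values were seen, in each library, minus the mean of the gene over the 6 libraries; right, the same for the summed level of 3 marker lists. Lines join the points of 1 gene or list for legibility, since libraries have no order, and control 1 and ethanol 3 are low for Adcy1, Adcy9 and the glutamatergic markers and high for Adcy7 and the oligodendrocyte markers.

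The levels of the marker lists are given beside these members as a description of 6 libraries. The libraries ranked from ethanol 3, the lowest, through control 1, control 3, ethanol 1 and control 2 to ethanol 2 in the summed glutamatergic markers, and Adcy9 followed the same order except that control 1 and ethanol 3 changed places. Of the 8 glutamatergic markers, 6 had control 1 and ethanol 3 as their 2 lowest libraries, whereas Tbr1 was lowest in control 2. All 8 oligodendrocyte markers had them as their 2 highest. The 10 striatal-type GABA neuron markers, led by Penk, Meis2 and Ppp1r1b, summed to 652, 407 and 499 CPM in the control and 638, 471 and 660 CPM in the ethanol libraries, and their 3 highest libraries were also the 3 highest of Adcy5, Adcy2 and Adcy7. Single markers went other ways, such as Tac1, whose second lowest library was ethanol 1 with 38.3 CPM. The 8 astrocyte markers summed to 5348 to 6630 CPM in the control and 5540.5 to 7505 CPM in the ethanol libraries, and the pan-neuronal markers to 3526 to 3994 CPM and 3431 to 4559.5 CPM. Neither sum had the full order of a member. The astrocyte sum shared its lowest library, control 2, and its highest, ethanol 3, with Adcy2. The pan-neuronal sum shared its lowest library, ethanol 3, and its highest, ethanol 2 and then ethanol 1, with Adcy1. Eno2, a gene of the pan-neuronal list, had at most 5 reads in any library for a reason not known, so a gene at or near 0 in these counts is not read as absent. None of the glutamatergic, striatal-type, oligodendrocyte or astrocyte markers was at 0. The part of these cell types in the levels of the adenylyl cyclases was not tested.

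Without control 1 and ethanol 3, a choice made once the values were known, 0 members had an unadjusted p below 0.05. The log2 fold changes with 2 libraries per group were 0.15 for Adcy1, 0.12 for Adcy2, 0.03 for Adcy3, -0.06 for Adcy4 and 0.03 for Adcy5. They were -0.16 for Adcy6, 0.08 for Adcy7, 0.01 for Adcy8, 0.16 for Adcy9 and 0.05 for Adcy10. The remaining libraries did not overlap between the groups for 3 of the 10, Adcy1, Adcy2 and Adcy6, beside 38.3% of all genes tested in this fit. Adcy6 had the smallest unadjusted p in this fit, 0.0565 from edgeR's quasi-likelihood test, with an adjusted p of 0.674. Over all genes, 87 had an adjusted p below 0.2 in the same fit, 12 higher and 75 lower in ethanol. The choroid plexus markers summed to 1126 and 900 CPM in control 2 and 3 and to 13.1 and 14.0 CPM in ethanol 1 and 2. In this subset, group and choroid plexus content therefore cannot be told apart. Over all 6 libraries the sums did not overlap either, at 524 to 1126 CPM in the control and 13.1 to 483 CPM in the ethanol libraries. The same limit therefore holds for the main comparison.

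The library pattern of Adcy7, the member above 1 CPM with the widest range between libraries, was compared with those of 14759 other genes of at least 1 CPM. Likeness was the root mean square difference over the 6 libraries between the log2 CPM profiles, each centred on its own mean. The nearest was Cckar, a cholecystokinin receptor gene, at 0.0446, with 1.77, 1.15 and 1.17 CPM in control 1, 2 and 3 and 1.31, 1.18 and 1.65 CPM in ethanol 1, 2 and 3. Like Adcy7, Cckar was highest in control 1 and ethanol 3. Other near genes were LOC102548367 (0.0566), Cacna2d2 (0.0603), an auxiliary calcium channel subunit, and Has2 (0.0638), a hyaluronan synthase. With 6 libraries such a ranking over many genes is a description only. Cckar and Has2 averaged 1.37 and 1.15 CPM, below the 1.52 CPM of Adcy10, whose counting error reached 11.2% in its lowest library. Their distances from Adcy7 are therefore not read as exact.

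The genes around the cyclases in the cAMP pathway did not pass the test either. Of 63 listed genes, 62 were tested, 0 had an unadjusted p below 0.05 by edgeR's quasi-likelihood test, and 38 had fold changes above and 24 below 0, with a median log2 fold change of 0.03. The groups did not overlap for 4 of the 62, beside 8.85% of all genes tested, a share no higher than this background, and the 3 with all ethanol libraries above the controls were Gnao1 and Gng13, G protein subunits, and Pde1b, a calmodulin-dependent phosphodiesterase. The other was Gnb3, a beta subunit, with all ethanol libraries below the controls; Gnao1, Gng13 and Gnb3 are named after their values were seen. Pde1b was at 176 ± 7.05 CPM in the control and 196 ± 11.1 CPM in the ethanol group (SD, n = 3 each), a log2 fold change of 0.15 that did not pass the test, and Gnb3 was at 5.54 ± 0.805 CPM in the control and 4.42 ± 0.428 CPM in the ethanol group.

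Within the G alpha subunits, 4 of the 7 had fold changes above 0, from -0.05 to 0.15 on the log2 scale. Gnas, which encodes Gs, was the most abundant per length with 270 RPKM, followed by Gnai2 and Gnai1, the Gi subunits, with 159 and 82.8 RPKM, and their log2 fold changes were -0.04, 0.06 and -0.05. For the 14 beta and gamma subunits tested the median was 0.02, and Gnb1, Gng2 and Gnb2, the most abundant, were at 0.09, 0.00 and 0.07, while Gng11 was listed at 0 counts, which as for Eno2 is not read as absence. All 10 partners and regulators were tested, with a median of 0.04. Among them Calm3 and Calm2, which encode calmodulin, were at 1036 and 698 RPKM and had log2 fold changes of 0.08 and 0.05.

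The 16 phosphodiesterases had log2 fold changes from -0.37 (Pde11a) to 0.30 (Pde4c), both named after their values were seen, with a median of 0.02. The most abundant per length were Pde2a with 144 RPKM, Pde1a with 57.7 RPKM and Pde1b with 37.8 RPKM. The 15 cAMP effectors had a median difference of 0.04, and 12 of them were above 0. The protein kinase A regulatory subunits Prkar1b and Prkar1a and the Epac gene Rapgef4 were the most abundant, with 256, 233 and 101 RPKM and log2 fold changes of 0.13, 0.00 and 0.12. None of these differences passed the test.

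**Figure D4:**
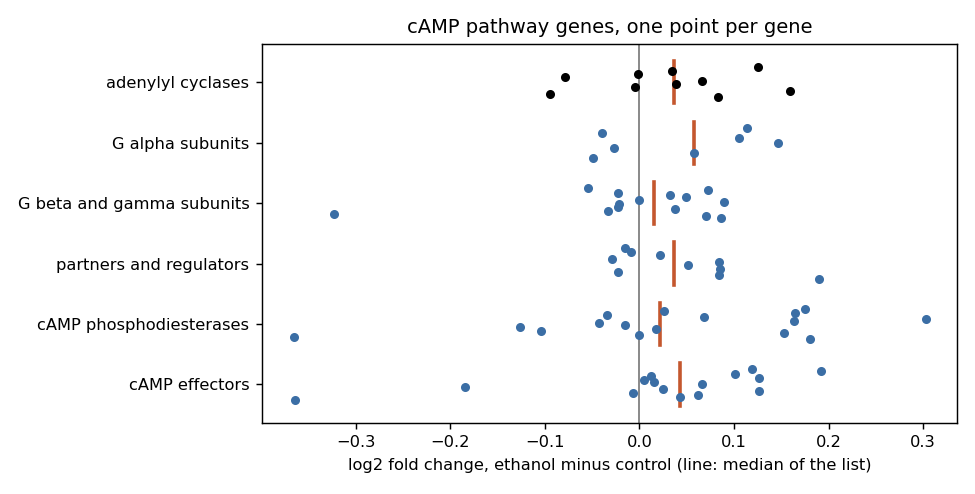
Log2 fold change, ethanol minus control, of each tested gene of the cAMP pathway lists, with the 10 adenylyl cyclases in black on top and a line at the median of each list. Most points lie within 0.2 of 0, and the medians of the 6 lists lie between 0.02 and 0.06.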

How the data were processed

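RNA-seq counts of 6 amygdala libraries were used. The authors deposited raw counts: per the file headers, featureCounts 1.6.3 (reverse-stranded, exons of each gene of Rnor_6.0) counted uniquely assigned single-end reads, and the submitters' processing notes name STAR 2.7.0f. Symbols were matched to 29322 of 38445 gene identifiers, and chromosome numbers by genes shared with the RefSeq table (GRCr8). In R 4.3.3, edgeR 4.0.16 scaled libraries by TMM (factors 0.976 to 1.01), kept genes by filterByExpr (minimum 10 counts) and compared groups by the quasi-likelihood test, adjusting p by Benjamini-Hochberg across the 18141 genes kept. Standard errors are the log2 fold change divided by the root of F, and 95% intervals use the 7.75 degrees of freedom of that test. CPM and RPKM use TMM-scaled totals, and log2 CPM has a prior count of 2. Exact permutation tests were 2-sided over 20 arrangements. Depth was 62576504 to 70755739 reads. Named pathway genes were the 3 most abundant per list and any with p below 0.05, and some genes that the rules name are not reported here. Code was tested on simulated data. Members and lists were chosen with earlier results of these data known. Each library pooled different rats, and p-values measure the spread between these pools.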

Additional observations from a re-analysis of the deposited data

How the results depend on the processing

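In the 14 alternatives planned, no adenylyl cyclase had an adjusted p below 0.2 or an unadjusted p below 0.05. Genes with an adjusted p below 0.2 numbered 77 with edgeR's likelihood ratio test (25 higher, 52 lower), 74 with DESeq2 1.42.0 (29 higher, 45 lower) and 0 with limma-voom. They numbered 0 to 83 with 1 library left out (4 without ethanol replicate 1, 83 without ethanol replicate 3, 0 otherwise) and 87 without both control replicate 1 and ethanol replicate 3. The replicate numbers are shared by the groups but not tied to shared rats, and deviations of same-numbered libraries correlated by 0.0264, 0.388 and 0.211, so the replicate block was only an alternative, with 0 genes adjusted. Pathway genes with an unadjusted p below 0.05 numbered 4 with the block (Pde1b, Pde4b, Pde11a and Bves), 1 with library size alone, without the filter, with a 1 CPM filter and with DESeq2 (Gnb3 each time), 0 to 3 with 1 library left out and 4 without both libraries named. Members whose groups did not overlap numbered 0 to 2 with 1 library left out (2 without control replicate 1 or ethanol replicate 2, 1 without control replicate 3 or ethanol replicate 3), beside 14.3% to 27.2% of all genes, and 3 without both, beside 38.3%.

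Of 140 log2 fold changes of members under these alternatives, 14 changed sign, none of them called. Adcy7 was 0.018 with limma-voom and 0.011 with the replicate block. With 1 library left out, the ranges were -0.0395 to 0.241 for Adcy1, 0.0737 to 0.22 for Adcy2, -0.0563 to 0.0722 for Adcy3, -0.0385 to 0.131 for Adcy4, 0.0227 to 0.119 for Adcy5, -0.141 to -0.024 for Adcy6, -0.132 to 0.214 for Adcy7, -0.025 to 0.0731 for Adcy8, -0.0366 to 0.262 for Adcy9 and -0.226 to -0.019 for Adcy10. Without both control replicate 1 and ethanol replicate 3, Adcy3 was at 0.034, Adcy4 at -0.0603, Adcy7 at 0.0807 and Adcy10 at 0.04995. Adcy2, Adcy5 and Adcy6 kept their sign under every alternative run. The cause of these shifts was not tested.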
